A study of Arabidopsis thaliana with 2 samples.

Results

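BAN (AT1G61720) and LDOX (AT4G22880) encode late enzymes of proanthocyanidin synthesis, and their allele counts were examined in RNA of whole Arabidopsis thaliana seeds. Members were all matched SNP windows of the TAIR8 sequence that lay inside chromosome 1 from 22794905 to 22796252 (BAN) and chromosome 4 from 12004766 to 12006240 (LDOX). There were 34 such windows in BAN and 37 in LDOX, 71 of the 147349 windows with a match in the series. A SNP window is a stretch of 71 nt centred on a base that differs between the accessions Col-0 and Bur-0, held once with each base. A match is a 36-nt read placed on one of these versions, so that each match counts for 1 allele.

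Seeds were F1 seeds harvested 4 days after pollination (4 DAP) from emasculated and hand-pollinated flowers. The cross Bur-0×Col-0 had a Bur-0 mother and a Col-0 father, and Col-0×Bur-0 a Col-0 mother and a Bur-0 father. Both accessions carry no named mutation or transgene in the labels, and seed coat, endosperm and embryo were not separated. Each cross was represented by 1 library sequenced on 4 lanes, which are technical repeats, so that the spread over plants is unknown and no difference between the crosses was tested.

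Proanthocyanidins are flavonoid polymers that accumulate in the innermost layer of the seed coat, the endothelium, and turn brown as the seed matures. LDOX (leucoanthocyanidin dioxygenase, also called anthocyanidin synthase) makes anthocyanidins, and BAN (BANYULS, anthocyanidin reductase) reduces them to the flavan-3-ol units of the polymer. The seed coat grows from the integuments of the ovule and therefore carries the genotype of the mother alone, whereas endosperm and embryo carry alleles of both parents. The comparison of both directions of the cross asks which parental allele the RNA of a gene carries, and separates a parental effect from a difference between the accessions.

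Almost all BAN and LDOX matches were maternal in both crosses. BAN had 146101 maternal and 70 paternal matches with a Bur-0 mother, and 94972 maternal and 105 paternal matches with a Col-0 mother. LDOX had 142139 maternal and 61 paternal matches with a Bur-0 mother, and 66672 maternal and 99 paternal matches with a Col-0 mother. Paternal matches thus made up 0.0479% of BAN with a Bur-0 mother (95% Wilson interval 0.0379% to 0.0605%) and 0.110% with a Col-0 mother (0.0912% to 0.134%). For LDOX the paternal share was 0.0429% (0.0334% to 0.0551%) with a Bur-0 mother and 0.148% (0.122% to 0.180%) with a Col-0 mother. These intervals hold the error of counting alone, and the libraries had no molecular identifiers, so a molecule may have been read more than once.

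For comparison, over all windows 4.60% of the matches were paternal with a Bur-0 mother and 6.85% with a Col-0 mother. In the 591 windows that reached 1000 matches in both crosses, paternal matches had a median share of 0.716% with a Bur-0 mother and 0.845% with a Col-0 mother. The 13 BAN windows of this depth had medians of 0.0294% and 0.0270%, and the 15 LDOX windows medians of 0.0461% and 0.0811%, in the same order of crosses. The RNA of both enzymes was therefore more strictly maternal than that of the median window of like depth, by more than 10-fold in each gene and cross as a description of these libraries.

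Each window was compared with the ratio of 2 maternal to 1 paternal genomes of the endosperm, in a one-sided exact binomial test per cross, of which the larger p was squared. At q of at most 0.05 over all windows, 52 of the 71 windows were maternally biased, 25 in BAN and 27 in LDOX (73.2%), beside 32.1% of all windows. None of the 71 windows was paternally biased, beside 0.0516% of all windows. Where both crosses had 20 matches or more, 44 of 45 member windows were called, beside 91.9% of such windows in the series, so at matched depth the share of calls was close to the background. The tests set the reads of single libraries against a fixed ratio, without a check by replicates.

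The windows that were not called lacked informative matches rather than a maternal excess. Of these 19 windows, 14 had no Col-0 match in either cross and 2 had no Bur-0 match, and the other 3 had 2 or 3 Col-0 matches in all. Their Bur-0 counts were partly high. In BAN the window starting at 22795755 had 7562 Bur-0 matches with a Bur-0 mother and 0 Col-0 matches with a Col-0 mother, and in LDOX the window starting at 12005259 had 6808 and 0. Windows of this kind cannot show the maternal allele of Col-0×Bur-0, so the few matches they gave in that cross, 55 and 1 respectively, were all paternal.

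This lack of Col-0 matches followed the spacing of the SNPs. In both genes SNPs lay close together, and 62 of the 71 windows had another matched SNP within 35 nt, at a median distance of 14 nt in BAN and 12 nt in LDOX. Only 9 windows (5 in BAN, 4 in LDOX) were isolated, whereas this was the case for 58.2% of all windows. No Col-0 match of the series covered a second matched SNP. A start position is the lowest coordinate of a read, on either strand. In all 62 crowded windows the number of Col-0 start positions was at most the distance to the nearest SNP in nt. In 50 of them Bur-0 reads had more start positions than that.

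Bur-0 reads, in contrast, matched across several SNPs and were partly counted in several windows. Of the maternal Bur-0 matches with a Bur-0 mother, 35.4% in BAN and 42.8% in LDOX covered 2 or more matched SNPs, beside 25.2% of all Bur-0 matches of this cross. In BAN 13.2% and in LDOX 12.2% of the reads of the maternal allele were found in at least 2 windows. Counts of the Bur-0 and the Col-0 allele of these genes are hence not on the same footing. To lessen this difference, counts were also limited to matches that cover 1 matched SNP. These are called one-SNP matches below, and levels are given as one-SNP matches per 1000000 one-SNP matches of the lane or cross.

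**Figure D1:**
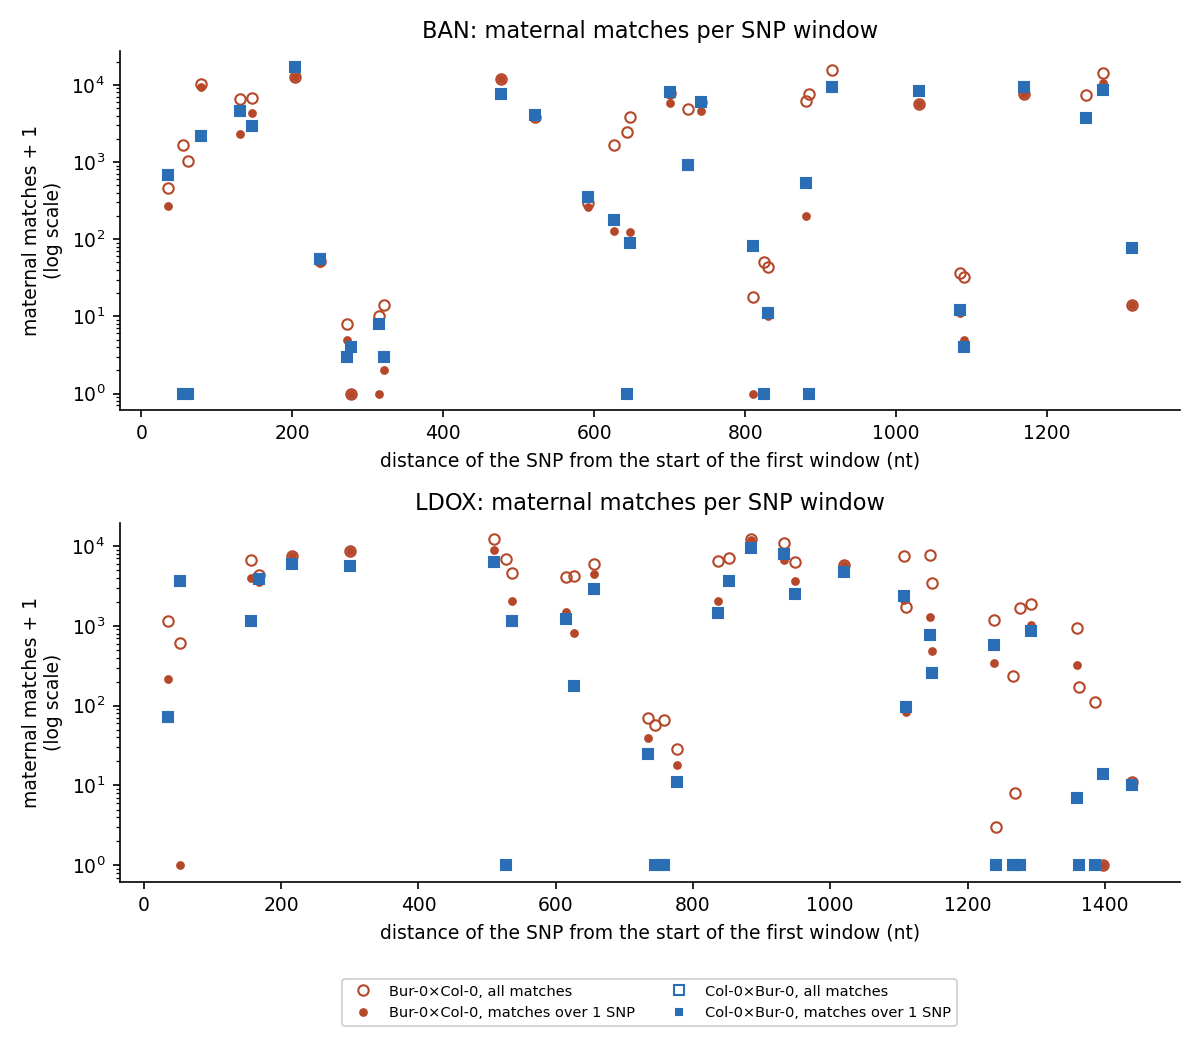
Maternal matches plus 1 per SNP window (log scale) against the distance of the SNP from the start of the first window in nt, for BAN (top) and LDOX (bottom). Open symbols are all matches and filled symbols one-SNP matches; where Bur-0×Col-0 has an open circle far above its filled one, such as at the LDOX SNP at 528 nt with 6808 matches and 0 one-SNP matches, the reads covered several SNPs, whereas both symbols of Col-0×Bur-0 coincide.

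Along BAN the maternal matches were spread over the whole gene. The deepest window, starting at 22795073, had 12521 maternal matches with a Bur-0 mother and 16989 with a Col-0 mother, which was rank 17 of all windows by depth. Other deep windows started at 22795785 (15463 and 9334), 22796144 (14037 and 8621) and 22795347 (11890 and 7714). The order of the crosses was therefore not the same in all deep windows. Between them lay runs of windows with few matches in either cross. The 5 windows starting from 22795107 to 22795191 had between 3 and 105 matches each, those from 22795681 to 22795700 between 49 and 98, and those at 22795954 and 22795960 had 46 and 34.

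In LDOX the deepest window started at 12005616, with 12297 maternal matches with a Bur-0 mother and 9511 with a Col-0 mother (rank 27). It was followed by the windows starting at 12005664 (10876 and 7924) and 12005241 (12153 and 6241). By these counts, which are not scaled to the libraries, Bur-0×Col-0 was higher in each of the deep windows named. Scaled to the libraries, the log2 ratio of maternal matches was 0.03 at 12005616, 0.12 at 12005664 and 0.62 at 12005241. By one-SNP matches it was 0.37, -0.19 and 0.56, so that at 12005664 Col-0×Bur-0 was the higher. A run of 4 windows from 12005466 to 12005508 had between 38 and 94 matches each, although the windows next to the run, at 12005387 and 12005567, had 8820 and 7978. The position of these runs relative to exons and introns was not analysed here. Over both genes 47 of 71 windows (66.2%) had at least 1000 matches, beside 1.28% of all windows, and the median window had 3915 matches, beside 11 in the series.

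With one-SNP matches the quartiles of the log2 ratio of the maternal alleles lay closer together. They were -0.44 and 0.19 in BAN against -0.47 and 1.14 with all matches, and 0.18 and 0.75 in LDOX against 0.25 and 1.91. Neighbouring windows were not compared with each other. In BAN the maternal Bur-0 level divided by the maternal Col-0 level had a median of -0.20 on the log2 scale over the 20 windows that could be compared, with 8 windows above 0 and 12 below. In LDOX the median was 0.54 over 23 windows, with 18 above 0 and 5 below. The median of all 31477 windows compared in this way was -0.11, with quartiles at -0.51 and 0.30. With all matches the medians were 0.23 in BAN, 0.89 in LDOX and -0.36 in the series. Windows compared had at least 20 maternal matches of the kind counted in each cross. In BAN their one-SNP ratio still ranged from -1.41 at 22795750 to 2.15 at 22794949. In LDOX it ranged from -0.72 at 12005970 to 2.26 at 12005358. Left out were LDOX windows such as 12004783, with 0 maternal one-SNP matches with a Bur-0 mother and 3694 with a Col-0 mother. At 12006090, also left out, there were 321 and 6. The one-SNP totals of LDOX hold both windows.

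Single start positions held large shares of some windows. At the BAN window starting at 22794949, reads that began at 22794979 gave 4333 matches with a Bur-0 mother, 42.3% of that window, but only 235 with a Col-0 mother. The opposite held at the window starting at 22795900, for reverse reads with their lowest coordinate at 22795904. These gave 4893 matches with a Col-0 mother (58.5% of the window) and 2467 with a Bur-0 mother. In LDOX reverse reads with their lowest coordinate at 12005677 were the most frequent in both crosses. They gave 3069 matches with a Bur-0 mother and 3998 with a Col-0 mother. The start positions used were mostly shared, as 84.3% of 904 one-SNP starts and strands in BAN and 88.9% of 741 in LDOX had maternal matches in both crosses. Among starts with at least 100 matches, 151 were higher with a Bur-0 mother and 164 with a Col-0 mother in BAN, and 192 and 74 in LDOX.

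The level of both genes was high, and the difference between the crosses depended on the way of counting. By all matches BAN made up 1.70% with a Bur-0 mother and 1.40% with a Col-0 mother, a log2 ratio of 0.28 (95% counting interval 0.27 to 0.29) or 1.21-fold. LDOX made up 1.66% and 0.986%, a log2 ratio of 0.75 (0.74 to 0.76) or 1.68-fold. By one-SNP matches the ratio fell to 1.02-fold in BAN (log2 0.03, 0.02 to 0.04) and to 1.25-fold in LDOX (log2 0.32, 0.31 to 0.34). In isolated windows alone, scaled to isolated windows, BAN had a log2 ratio of 0.0040 (-0.02 to 0.03) and LDOX one of 0.47 (0.44 to 0.50), which is 1.38-fold. In whole seeds, fewer cells of a type and less RNA per cell cannot be told apart.

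**Figure D2:**
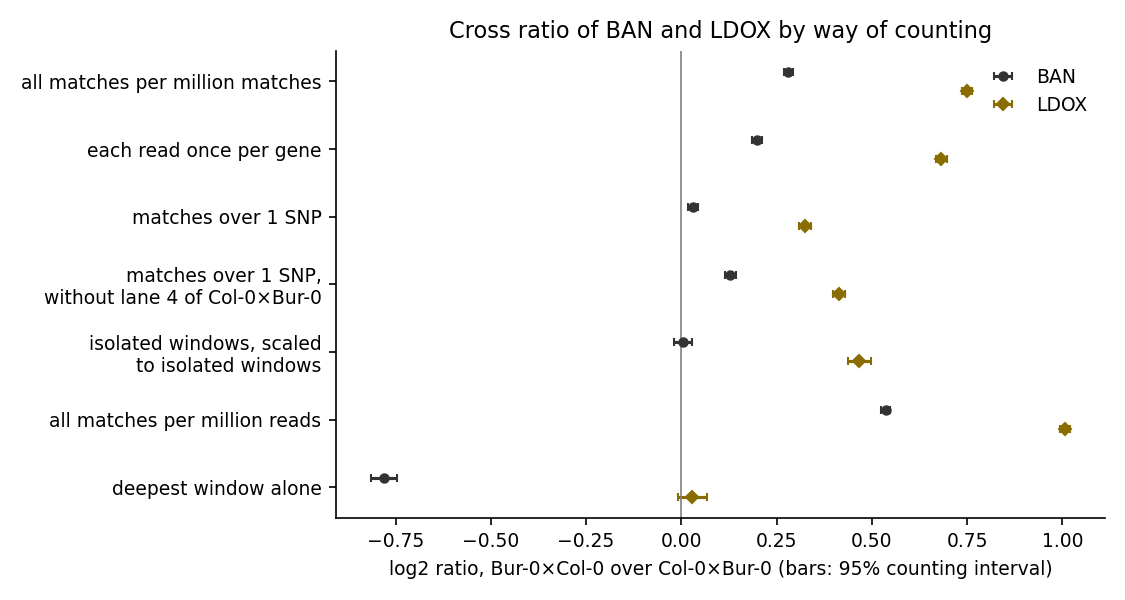
Log2 ratio of Bur-0×Col-0 over Col-0×Bur-0 (x axis) for BAN and LDOX under 7 ways of counting and scaling; points are the ratio and bars the 95% counting interval of 1 library per cross. LDOX lies above BAN in every row, from 0.03 in its deepest window to 1.01 per 1000000 reads, while BAN moves from -0.78 in its deepest window to 0.54 per 1000000 reads.

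Lanes were compared because lane 4 of Col-0×Bur-0 stood apart. Pairs of lanes were compared by the dispersion of their window counts, averaged over windows. For pairs of this lane with the other lanes of its cross the mean was 7.03 to 8.27 over all windows. Over the windows of BAN and LDOX it was 22.6 to 25.1. All other pairs of lanes of a cross lay between 0.989 and 1.26, and between 0.846 and 3.89 over BAN and LDOX. Medians for this lane's pairs were lower, 1.504 to 1.679 and 4.287 to 5.629, against at most 0.53 and 0.773 in other pairs. Windows of BAN and LDOX were mostly deeper than those of the series, and the effect of depth was not tested. The higher values there therefore do not show a larger deviation in these genes. In this lane 6.05% of the reads were matched, against 5.31% to 5.44% in the other lanes of the cross and 6.54% to 6.72% with a Bur-0 mother. Both crosses were run on 2 sequencers, as read from the read names, with 3 lanes on the first and 1 lane on the second.

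BAN had 14652, 14720, 14463 and 14042 one-SNP matches of both alleles per 1000000 in lanes 1, 2, 3 and 5 of Bur-0×Col-0. With a Col-0 mother it had 16692 in lane 4, 13424 in lane 5 and 13439 in lane 6 of the first sequencer, and 12782 in lane 6 of the second. Lane 4 thus lay above all lanes of Bur-0×Col-0 and the other 3 lanes below them. LDOX had 12395, 12642, 12513 and 12313 in the lanes of Bur-0×Col-0, and 11580, 9452, 9262 and 9396 in those of Col-0×Bur-0, in the same order. For LDOX the lanes of both crosses did not overlap, lane 4 included. How many other loci separate in this way was not counted, and the lanes are not replicates of the crosses.

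Without lane 4 the one-SNP ratio was 1.09-fold for BAN and 1.33-fold for LDOX. Within the first sequencer it was 1.01-fold and 1.24-fold, and within the second, which lane 4 does not enter, 1.10-fold and 1.31-fold. Lane 4 was not simply higher in these genes. Among windows with at least 1000 matches with a Col-0 mother, it exceeded the other lanes in 11 of 13 BAN windows and in 13 of 16 LDOX windows, by up to 1.75-fold at 22795001. It was lower in the other 5, down to 0.730 of the other lanes at 22795347 in BAN and 0.478 at 12005268 in LDOX. The part of this lane's deviation in the cross ratio beyond these values was not tested.

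The ratio of LDOX to BAN within a lane does not depend on the scaling to the library. By maternal one-SNP matches it was 0.846, 0.858, 0.865 and 0.877 in the lanes of Bur-0×Col-0, and 0.694, 0.704, 0.689 and 0.735 in those of Col-0×Bur-0. The lanes of the crosses did not overlap, and lane 4 lay among the others of its cross. How many other pairs of genes separate in this way was not counted. The ratio is no comparison of the levels of the 2 genes, since their windows and SNP spacing differ.

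**Figure D3:**
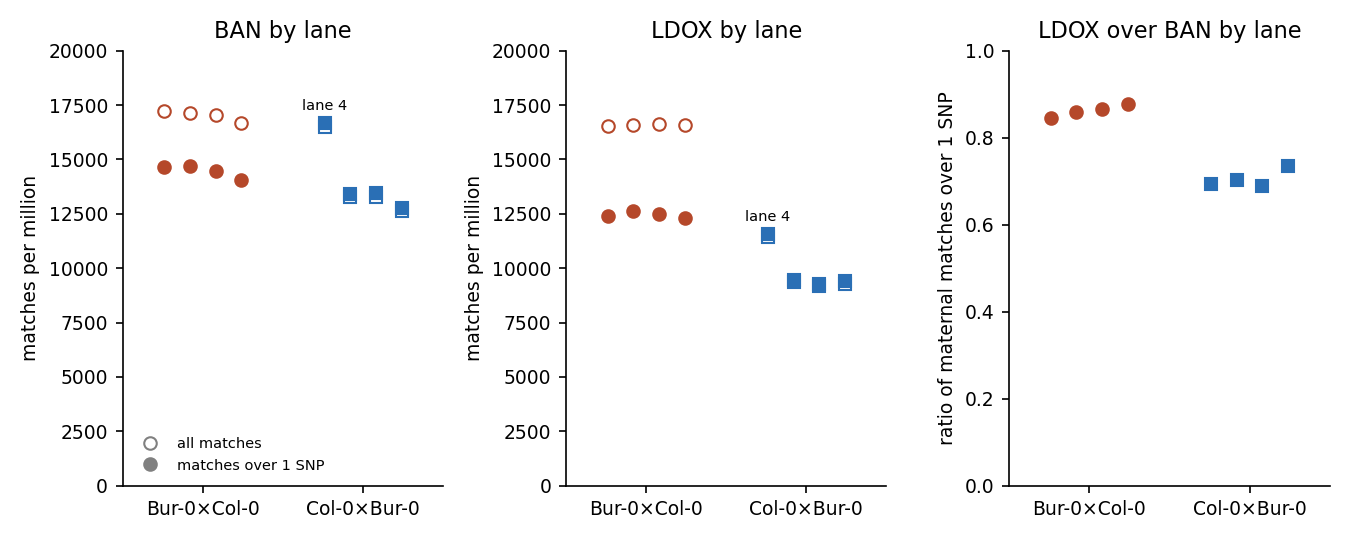
BAN (left) and LDOX (middle) in matches per 1000000 of each lane, and LDOX divided by BAN (right, maternal one-SNP matches), for the 4 lanes of each cross. Open symbols are all matches of the gene, and filled symbols of the left and middle panels are one-SNP matches of both alleles. Lane 4 of Col-0×Bur-0 stands at 16692 for BAN beside 12782 to 13439 in the other 3 lanes, whereas its ratio of LDOX to BAN, 0.694, lies within the range of 0.689 to 0.735 of those lanes.

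The few paternal matches were not evenly spread over the reads. In BAN 28 of 70 paternal matches with a Bur-0 mother and 64 of 105 with a Col-0 mother had the SNP under the first base sequenced, and in LDOX 6 of 61 and 22 of 99. Of the maternal matches of BAN only 4.20% and 1.47% lay this way, and of those of LDOX 1.61% and 0.994%. Over all windows the first base held 2.53% of the paternal matches with a Bur-0 mother and 2.36% with a Col-0 mother, beside 2.88% and 3.28% of the maternal ones, so paternal matches were not more frequent there. Where the first base lay on the SNP, the paternal share was 0.454% (0.314% to 0.655%) for BAN with a Bur-0 mother and 4.39% (3.45% to 5.57%) with a Col-0 mother. Of the 64 paternal matches behind the latter share, 53 came from a single start covering 2 SNPs, where no maternal match was counted. These shares of the crosses are therefore not on the same footing.

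Most of the paternal matches at the first base came from single start positions. In BAN reads starting at 22795790 gave 53 of the 105 paternal matches with a Col-0 mother, with 18, 14 and 14 in lanes 4, 5 and 6 of the first sequencer and 7 in lane 6 of the second. This start lies in the window at 22795755, which had no Col-0 match, so no maternal match was counted beside them. Reads starting at 22795820 gave 25 of the 70 paternal matches with a Bur-0 mother, with 340 maternal matches at the same start. In LDOX the most frequent paternal start was 12005651 in both crosses, with 6 paternal and 75 maternal matches with a Bur-0 mother and 13 and 145 with a Col-0 mother.

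Which cross had the larger paternal share turned with the counting in BAN, while in LDOX the shares became nearly equal by one-SNP matches. Of the paternal Bur-0 matches with a Col-0 mother, 79 of 105 in BAN and 49 of 99 in LDOX covered 2 or more SNPs, positions at which a maternal Col-0 match was never counted. By one-SNP matches the paternal share of BAN was 0.0741% (0.0587% to 0.0936%) with a Bur-0 mother and 0.0274% (0.0187% to 0.0401%) with a Col-0 mother, so that the former was now the higher. For LDOX it was 0.0750% (0.0584% to 0.0964%) and 0.0749% (0.0569% to 0.0988%). Leaving out the first base as well, it was 0.0453% (0.0335% to 0.0613%) and 0.0246% (0.0164% to 0.0369%) in BAN and 0.0690% (0.0530% to 0.0898%) and 0.0439% (0.0306% to 0.0631%) in LDOX, with overlapping intervals in both genes.

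**Figure D4:**
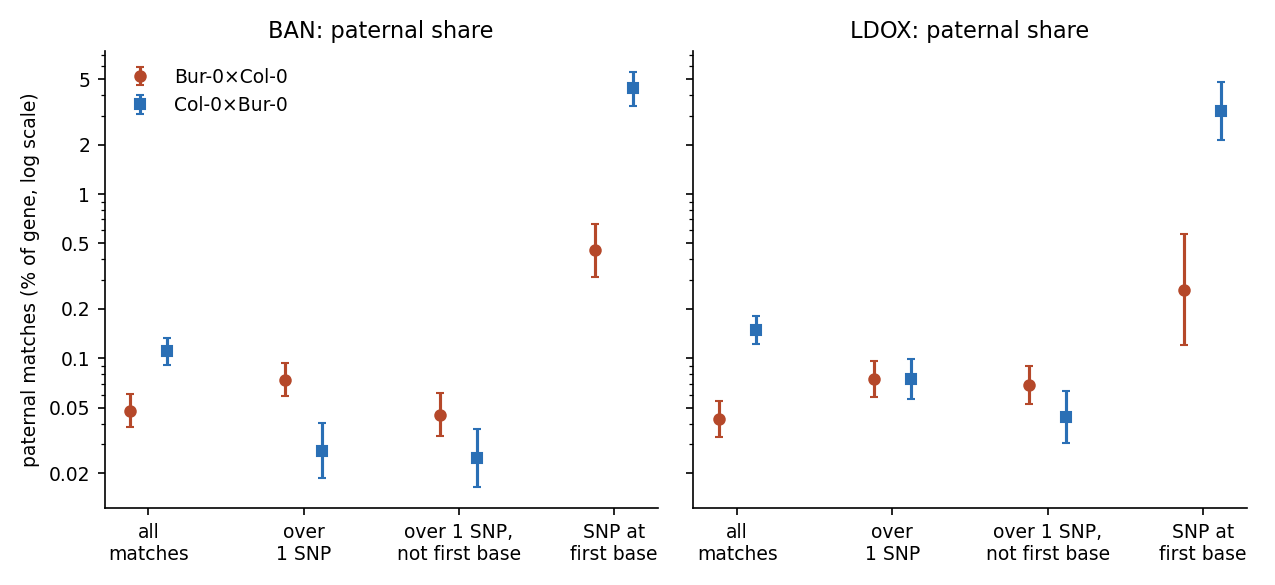
Paternal matches in percent of the matches of the gene (log scale) for BAN (left) and LDOX (right), by all matches, one-SNP matches, one-SNP matches without the first base, and matches with the SNP under the first base; points are shares and bars 95% Wilson intervals. In BAN the share of Col-0×Bur-0 is above that of Bur-0×Col-0 by all matches (0.110% and 0.0479%) and below it by one-SNP matches (0.0274% and 0.0741%). The first-base shares hold matches over any number of SNPs, so those of the crosses are not on the same footing.

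By lane, paternal matches of BAN numbered 25, 19, 16 and 10 in lanes 1, 2, 3 and 5 of Bur-0×Col-0, and 37, 25, 25 and 18 in the lanes of Col-0×Bur-0, lane 4 first. Those of LDOX numbered 19, 31, 7 and 4 with a Bur-0 mother and 31, 20, 30 and 18 with a Col-0 mother. The share of LDOX with a Bur-0 mother therefore ranged from 0.0139% (0.00541% to 0.0358%) in lane 5 to 0.0811% (0.0572% to 0.115%) in lane 2, intervals that did not overlap. The share of BAN with a Col-0 mother was the steadiest, between 0.103% and 0.122%. Paternal matches appeared in 14 windows of BAN and 14 of LDOX with a Bur-0 mother, and in 16 and 25 with a Col-0 mother.

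The pathway upstream and around both enzymes was examined with 23 other genes, of which 16 could be located on the windows. The position of a locus was taken from the study's supplementary list of maternally biased loci, of which only a part, 1998 loci, was at hand. It was the run of neighbouring windows whose summed counts equal those listed. A gene that was not located may therefore still stand in the rest of that list. The loci located had a median of 2076 matches. Pathway genes located in this way were selected for strong maternal bias in the same libraries, and their maternal shares are no evidence of their own. Paternal matches made up at most 1.09% of each gene in either cross, with medians of 99.98% maternal with a Bur-0 mother and 99.94% with a Col-0 mother. The medians of all 1909 loci located were 98.7% and 98.2%.

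Among the early enzymes, CHS (chalcone synthase, the entry to the flavonoids) had 20091 matches with a Bur-0 mother and 18979 with a Col-0 mother, with 9 and 5 paternal ones. CHI (chalcone isomerase) had 4327 and 3529 matches. F3'H (flavonoid 3'-hydroxylase) was the deepest of the list, with 32363 and 34035 matches. DFR (dihydroflavonol reductase), which makes the substrate of LDOX, had 5798 and 5630. None of the other located pathway genes reached the depth of BAN or LDOX in either cross, but these counts depend on the number of SNPs and are no comparison of levels. Of the genes that act after BAN, TT19 (a glutathione S-transferase) had 14371 and 9582 matches, TT12 (a tonoplast transporter) 3988 and 4093, and AHA10 (a proton pump) 10156 and 3248.

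By one-SNP matches 10 of the 16 genes were higher with a Bur-0 mother and 6 with a Col-0 mother, with a median log2 ratio of 0.08. By all matches it was 6 and 10, with a median of -0.08. The medians of all located loci were -0.11 (quartiles -0.38 and 0.16) and -0.18, respectively. The change was largest for AHA10, with 39 windows, which moved from 1.30 to 0.07. CHS with 2 windows moved from -0.26 to 0.12, and DFR with 2 windows from -0.30 to 0.08. All matches of CHS and DFR covered 1 SNP, so their counts were the same both ways. These 2 moves therefore came from the changed library totals alone, a change that enters the ratio of every gene. LDOX, at 0.32 by one-SNP matches, was close to CHI at 0.33 and below 4CL1 (4-coumarate:CoA ligase) at 0.43 and FLS1 (flavonol synthase) at 0.61, whereas F3'H was at -0.48. Of the 1909 loci located, 15.2% had a higher one-SNP ratio than LDOX and 37.2% a higher one than BAN.

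**Figure D5:**
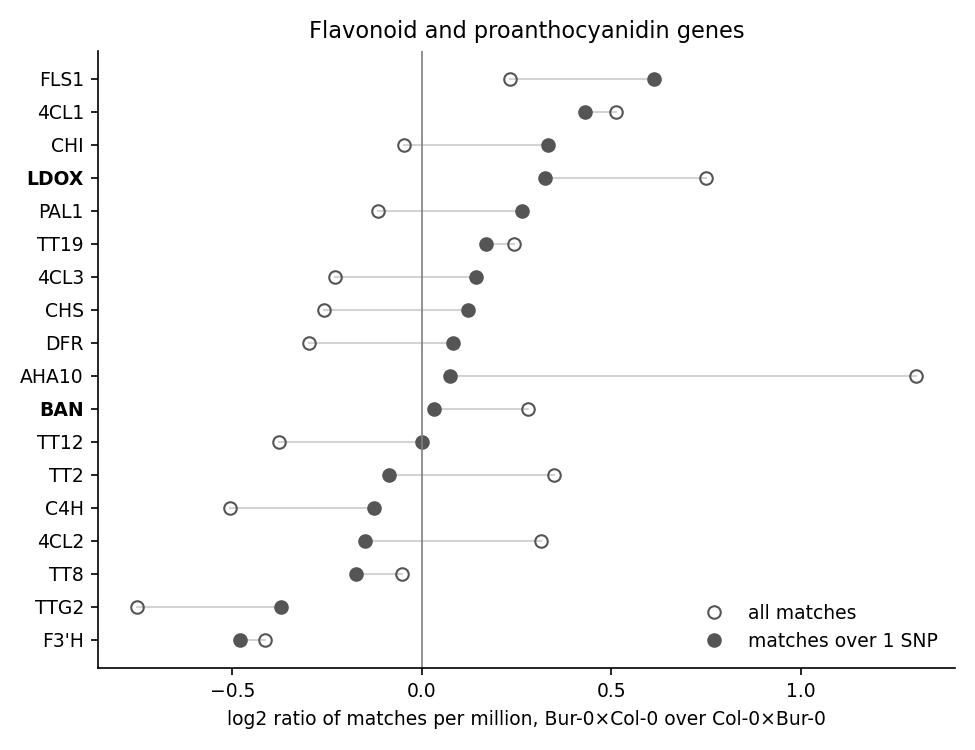
Log2 ratio of matches per 1000000, Bur-0×Col-0 over Col-0×Bur-0, for BAN, LDOX and the 16 other located pathway genes; open circles are all matches, filled circles one-SNP matches, from 1 library per cross without a test. AHA10 moves from 1.30 to 0.07 and LDOX from 0.75 to 0.32. CHS moves upward, from -0.26 to 0.12, by the change of library totals alone, as its counts are the same both ways.

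Regulators on the pathway list were detected at lower counts than BAN and LDOX, and TTG1, TT1 and TT16 were not located. TT2, a MYB factor, had 4071 matches with a Bur-0 mother and 2525 with a Col-0 mother, of which 0 and 1 were paternal, and a one-SNP ratio of -0.09. TT8, a bHLH factor, had 2284 and 1870 matches with 2 and 3 paternal ones, and a ratio of -0.17. TTG2, a WRKY factor, had 468 and 622 matches and no paternal one, which allows paternal shares of up to 0.641% and 0.482%, the share that 3 matches would make. Its ratio was -0.37. By all matches the ratios were 0.35 for TT2, -0.05 for TT8 and -0.75 for TTG2. The sign for TT2 thus turned with the counting, and the one-SNP ratios of all 3 regulators lay within the quartiles of the located loci given above.

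As a check of the tissue, windows were sought for 6 endothelium markers beside BAN. TT2, TT8, TT12, AHA10 and TT19 were located and had matches in both crosses, and TT16 was not located. Of 4 endosperm genes sought, PHE1 (a MADS-box gene) and YUC10 (an auxin synthesis gene) were located, and FWA and AGL62 were not. PHE1 had 54 paternal and 2 maternal matches with a Bur-0 mother and 50 and 33 with a Col-0 mother. YUC10 had 8 and 1, and 9 and 3. Both were located through the list of paternally biased loci, so the parent of their matches was fixed by the choice, as that of the endothelium markers was by the maternal list. The check shows only that RNA of these genes was counted in the seeds.

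Finally, loci were ordered by how closely their log2 matches per 1000000, centred over the 8 lanes, followed each gene, among loci with at least 1000 matches in each cross. Of 817 loci, those closest to BAN were KASI, MGP1, BI1, SDH8 and UBQ4, with root mean square differences between 0.03 and 0.05. Closest to LDOX were AT1G32930, AT1G67350, AT1G57660, AT5G11230 and WIT2 (0.04 to 0.05). No pathway gene was among them, and LDOX was at place 270 in the order for BAN, with a difference of 0.23. By one-SNP matches LDOX was at place 185 of 745 loci there, with a difference of 0.15. In the order for LDOX, BAN was at place 113 by all matches and 124 by one-SNP matches. With one-SNP matches, 0 of the 5 loci closest to BAN and 1 of the 5 closest to LDOX (AT1G67350) were the same. The likeness is a description over 8 lanes of 2 libraries, in which the difference between the crosses enters together with that between lanes.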

How the data were processed

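RNA of whole F1 seeds at 4 DAP was sequenced from both reciprocal crosses, 1 sample per cross, each on 4 lanes. Per the file headers, the authors deposited the vmatch hits of 36-nt reads to 71-nt TAIR8 windows around Bur-0 SNPs, with up to 2 mismatches and unique in the set of windows, without counts, gene names or normalization. Groups came from the labels, with the mother named first, and no column was left unassigned. Bur-0×Col-0 gave 8576779 matches from 129251366 reads (6.64%) and Col-0×Bur-0 gave 6773239 from 121894863 (5.56%), counted here per window, allele and lane. Read totals are those of the file headers and differ from the totals in the study's methods, mainly for Bur-0×Col-0; the share of reads matched and levels per read depend on them. With 1 library per cross, precision is that of counting only.

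Shares have 95% Wilson intervals, ratios between crosses exact conditional binomial intervals, and a count of 0 the share of 3 matches. The test of maternal against paternal matches (2m:1p, larger p squared, q as p times tests over rank) took its form from the methods of the study, but was run here on each of 147349 single windows, whereas the study tested sums per gene and left out windows shared by genes. It was tested on simulated data. For each read the matched SNPs under its 36 bases were counted. Pathway genes, all 23 of a list, were named where their windows could be located, as were the 5 loci most alike per gene. Of 2025 loci located in all, 1101 had a symbol in the RefSeq table (TAIR10.1), which was used for names only. These loci came from the lists of maternally and of paternally biased loci in the supplement, the maternal list only in part. BAN, LDOX and all lists were chosen with earlier results of these data known. One-SNP matches, removal of the first base, scaling to reads and separate sequencers were chosen after seeing the data. Alternatives are given in the closing section. Sequences, exons and introns were not used here. Python 3.11.15 with numpy 2.4.6, pandas 2.3.3 and scipy 1.17.1 was used.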

Additional observations from a re-analysis of the deposited data

How the results depend on the processing

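All 44 alternatives of the maternal shares kept both genes on the maternal side of the test. Shares were lowest when one start and orientation counted once per lane, at 99.06% for BAN and 99.05% for LDOX in Bur-0×Col-0 and at 98.20% and 96.92% in Col-0×Bur-0. The number of BAN and LDOX windows called was between 44 and 53 over its alternatives, and that of the series between 32300 and 59219. Both low ends came from the limit of 20 matches in each cross, which left 45 and 34959 windows to test, of which 97.8% and 92.4% were called. No paired analysis was possible because each cross had 1 library. The cause of the changes below was not tested, beyond what the construction of an alternative shows.

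The log2 ratios between crosses moved more. For BAN, 0.28 by all matches, the sign turned in isolated windows scaled to all matches (-0.37) and in the deepest window alone (-0.78). It was 0.46 with one start counted once per lane, 0.20 with each read once per gene, 0.43 without the deepest window and 0.62 when scaled by the median ratio of windows. For LDOX, 0.75 by all matches, the values were 0.093 in isolated windows scaled to all matches, 0.029 in the deepest window alone, 0.79, 0.68, 0.84 and 1.09 in the same order. Of the ways chosen after seeing the data, one-SNP matches gave 0.031 for BAN and 0.32 for LDOX, one-SNP matches without lane 4 of Col-0×Bur-0 gave 0.13 and 0.41, and isolated windows scaled to such windows 0.0040 and 0.47. Scaling to reads gave 0.54 and 1.01, the first sequencer alone 0.25 and 0.73 and the second 0.40 and 0.83. Leaving out 1 lane gave 0.25 to 0.38 for BAN and 0.71 to 0.84 for LDOX, the highest each time without lane 4 of Col-0×Bur-0. With maternal matches only, both ratios stayed within their counting intervals.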
